A study of Mus musculus with 37 samples.

Results

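Cancerous upper urinary tract (UT) was compared with the bladder of the same mouse in 6 female wild-type BALB/c mice that received N-butyl-N-(4-hydroxybutyl) nitrosamine (BBN), a nitrosamine carcinogen, for 18 weeks. The mice were numbers 2, 5, 7, 8, 9 and 10, those whose bladder RNA had an integrity number of 5 or more, and they gave 13 of the 37 libraries of the series, 7 of UT and 6 of bladder. Both ureters of mouse 5 were cancerous and were joined to 1 value, so that each mouse counted once in each organ. The other libraries were UT and bladder of mice outside this rule, the noncancerous side (UN) of BBN-treated mice, and ureter (U) and bladder of 3 female BALB/c mice of the same genotype that received no BBN. Numbers of untreated and BBN-treated mice do not refer to the same animals. A UT library was made from a dissected piece of tissue, not from isolated tumor cells. The bladders carry N in their library names, and no label gives the histology of a single bladder.

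Ureter and bladder are lined by urothelium, a stratified epithelium whose basal layer holds keratins 5 and 14 and whose umbrella cells hold uroplakins and keratin 20. Below it lie a fibroblast-rich lamina propria and a coat of smooth muscle, which is thin in the ureter and forms the thick detrusor in the bladder. The bladder arises mainly from the cloaca and the ureter from the ureteric bud and its surrounding mesenchyme, and the transcription factors that pattern these territories differ.

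The UT and bladder libraries of the 6 mice did not differ in depth beyond the spread. Counts per mouse, with the 2 ureters of mouse 5 averaged, were 11282501 to 16735797 in UT and 11150685 to 15104379 in bladder (exact permutation test of the 6 paired differences, signs flipped, two-sided, p = 0.375, where 0.0312 is the smallest p possible). The fit of genes used the sum of these 2 ureters, so that column was deeper than this range. The 10 most abundant genes took 5.07% to 14.2% of counts in UT and 5.17% to 6.84% in bladder (same test, p = 0.0625). UT of mouse 9, which the study left out of its clustering, was kept. Levels are given as CPM, read counts scaled to a common library total. A gene was called when the false discovery rate (FDR) was under 0.1 and the fold change at least 2 in edgeR's quasi-likelihood test with the mouse as a block. Adjusted p-values below are from this test with Benjamini-Hochberg adjustment over all genes tested, and errors of log2 fold changes are standard errors (SE). In these bulk libraries fewer cells of a type and less RNA per cell cannot be told apart.

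Among 14915 genes tested, UT exceeded bladder for 122 (0.818%) and fell below it for 161 (1.08%), and the unadjusted p was under 0.05 for 2834. Of the called genes, 108 of the 122 were higher and 160 of the 161 lower in all 6 mice. Over all genes tested, 447 lay higher and 1560 lay lower in all 6 mice, and 7256 had a log2 fold change above 0 and 7659 below. These shares over all genes are the background for the list counts below. UT lay above every bladder for 54 genes (0.362%) and below every bladder for 252 (1.69%). Among the called genes these numbers were 20 and 101. The calls rested on 6 pairs and on single mice among them. When mouse 8 was left out, edgeR called 0 genes in either direction, with 1710 of 14914 at an unadjusted p under 0.05. Without mouse 7 the counts were 5 higher and 16 lower, without mouse 9 they were 49 and 40, and without mouse 10 they were 4 and 17. Without mouse 2 they were 817 and 440. DESeq2 with the same block called 1116 and 755 genes, among them all 122 higher genes and 160 of the 161 lower genes. Under the alternatives run, 0 of the called genes picked by the naming rule changed direction, whereas the uncalled Upk3a, Mki67 and Pax2 did under some. Direction aside, named genes often lost their call, as given in the last section. The rule took the largest changes with a mean of at least 10 CPM and list members from 5 CPM, and called members outside it were named after their values were seen, to complete a count.

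**Figure D1:**
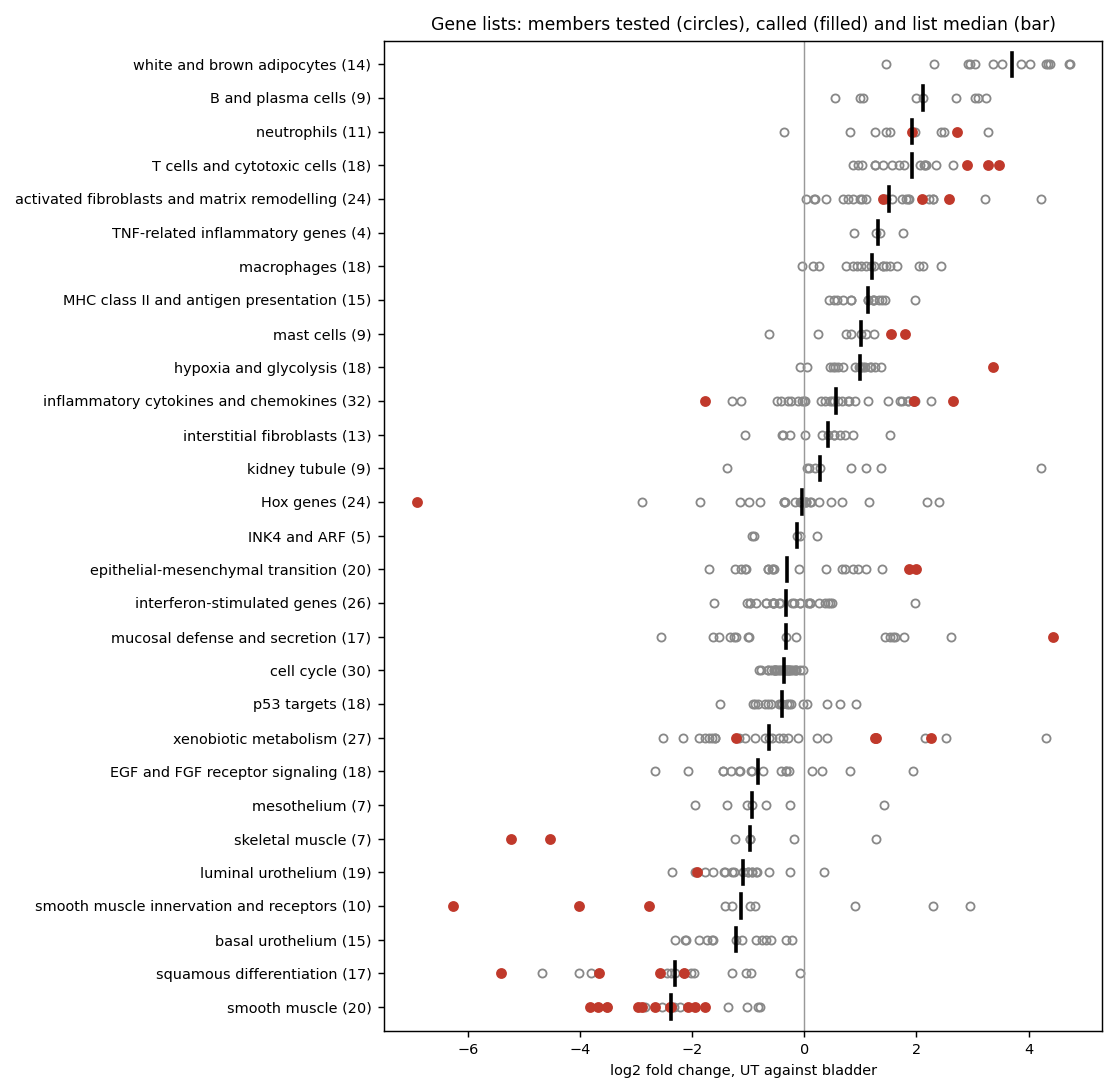
Log2 fold change of UT against bladder (x axis) for the tested members of the gene lists reported here (y axis, number tested in parentheses). Circles are genes, filled circles are called genes and bars are list medians. The smooth muscle list has the lowest median, -2.39, and the adipocyte list the highest, 3.70, with no adipocyte gene called.

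Smooth muscle genes gave more calls than any other list. Of 20 genes of the smooth muscle list, all tested, 11 were lower in UT and 0 higher, with a median log2 fold change of -2.39 against -0.01 over all genes. Calponin (Cnn1), an actin-binding regulator of contraction, was measured at 4.3, 46.4 and 87.8 CPM (lowest, median and highest of 6 mice) in UT and at 223, 522 and 718 CPM in bladder. The groups did not overlap, and UT of mice 2 and 10 held the least. Its log2 fold change was -3.83 ± 0.61 (adjusted p = 0.0661). Actg2 (chromosome 6, 83512909 to 83536251 on GRCm38), the enteric smooth muscle actin, had 40.3, 70.9, 83, 45.5, 51.6 and 11.2 CPM in UT of mice 2, 5, 7, 8, 9 and 10. The bladders of the same mice had 1033, 775, 498, 679, 727 and 243 CPM. Every mouse was lower in UT, by 12.9-fold in the fit (log2 fold change -3.69 ± 0.29, adjusted p = 0.0208). Desmin (Des), the intermediate filament of muscle, fell in all 6 mice from 252 to 861 CPM in bladder to 9.99 to 107 CPM in UT (log2 fold change -3.53 ± 0.58, adjusted p = 0.0665). Synaptopodin 2 (Synpo2), a protein of actin bundles in muscle, fell by 7.86-fold (adjusted p = 0.0939). Of the members not named by the rule, Acta2, Tagln, Myl9, Tpm2, Kcnmb1, Casq2 and the coactivator Myocd were also called lower. Smooth muscle myosin (Myh11) was 7.63 to 241 CPM in UT and 334 to 1694 CPM in bladder, with no overlap of the groups, and did not pass (log2 fold change -3.52 ± 0.98, adjusted p = 0.14). Of 10 tested genes of smooth muscle innervation and receptors, by which nerves drive the detrusor, 3 were called lower and 0 higher. The ATP-gated channel P2rx1 was 0.463, 7.17 and 19 CPM in UT and 39.9, 87.5 and 157 CPM in bladder (log2 fold change -4.01 ± 0.74, adjusted p = 0.0745). The muscarinic receptors Chrm2 and Chrm3, named to complete the count, were lower in all 6 mice and at 0 to 0.0779 and 0.0735 to 1.36 CPM in UT, against 1.26 to 12.2 and 0.865 to 3.29 CPM in bladder.

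Untreated ureter also held less Cnn1 and P2rx1 than untreated bladder. Cnn1 was 160.1 ± 32.2 CPM (SD, n = 3) in untreated ureter and 1030.1 ± 118 CPM in untreated bladder, P2rx1 was 14.8 ± 1.81 and 277 ± 47.1 CPM, and the median log2 fold change of the smooth muscle list was -0.91. Summed over 5 markers (Myh11, Acta2, Actg2, Des and Cnn1), smooth muscle was 186 to 1091 CPM in UT, 1971 to 2676 CPM in untreated ureter, 1852 to 5944 CPM in bladder of BBN-treated mice and 7442 to 8962 CPM in untreated bladder.

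The promoters of this group are shown because its members moved together. RefSeq promoter windows on GRCm38.p6, 250 bases before to 50 after the gene start, were found for 16 of the 20 genes. The CArG box, the binding sequence of serum response factor, was searched in them as an exact match on both strands, which are equivalent for this motif. It was present for 2 of the 16 genes (12.5%) and for 182 of the 11133 tested genes with a window (1.63%). Of the 8 genes called lower that had a window, 1 held it. The 250 bases before the start of Cnn1 and Des, the genes of largest change with a window, and of Myl9, which holds the match (in capitals, first base 161 before the start, chosen after the search), are printed 5′ to 3′ on the plus strand.
Cnn1 (chr9:22099003-22099252): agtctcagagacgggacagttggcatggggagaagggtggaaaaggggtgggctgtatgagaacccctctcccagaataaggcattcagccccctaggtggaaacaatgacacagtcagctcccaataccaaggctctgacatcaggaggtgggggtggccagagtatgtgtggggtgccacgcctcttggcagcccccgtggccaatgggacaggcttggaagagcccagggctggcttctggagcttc
Des (chr1:75360042-75360291): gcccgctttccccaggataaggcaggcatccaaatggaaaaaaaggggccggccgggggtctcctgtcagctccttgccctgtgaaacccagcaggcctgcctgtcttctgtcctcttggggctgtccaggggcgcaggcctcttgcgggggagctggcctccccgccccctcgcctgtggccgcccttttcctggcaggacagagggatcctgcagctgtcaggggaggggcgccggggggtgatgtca
Myl9 (chr2:156775214-156775463): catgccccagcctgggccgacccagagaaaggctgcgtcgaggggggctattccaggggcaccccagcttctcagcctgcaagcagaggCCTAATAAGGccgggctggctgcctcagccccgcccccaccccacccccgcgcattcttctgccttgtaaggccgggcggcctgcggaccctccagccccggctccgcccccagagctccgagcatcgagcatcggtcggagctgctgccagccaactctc
The windows of Cnn1 and Des held no exact match. Myl9, the regulatory light chain of smooth muscle myosin, was 20.9, 146 and 257 CPM in UT and 274, 632 and 910.3 CPM in bladder (log2 fold change -2.39 ± 0.53, adjusted p = 0.0997).

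**Figure D2:**
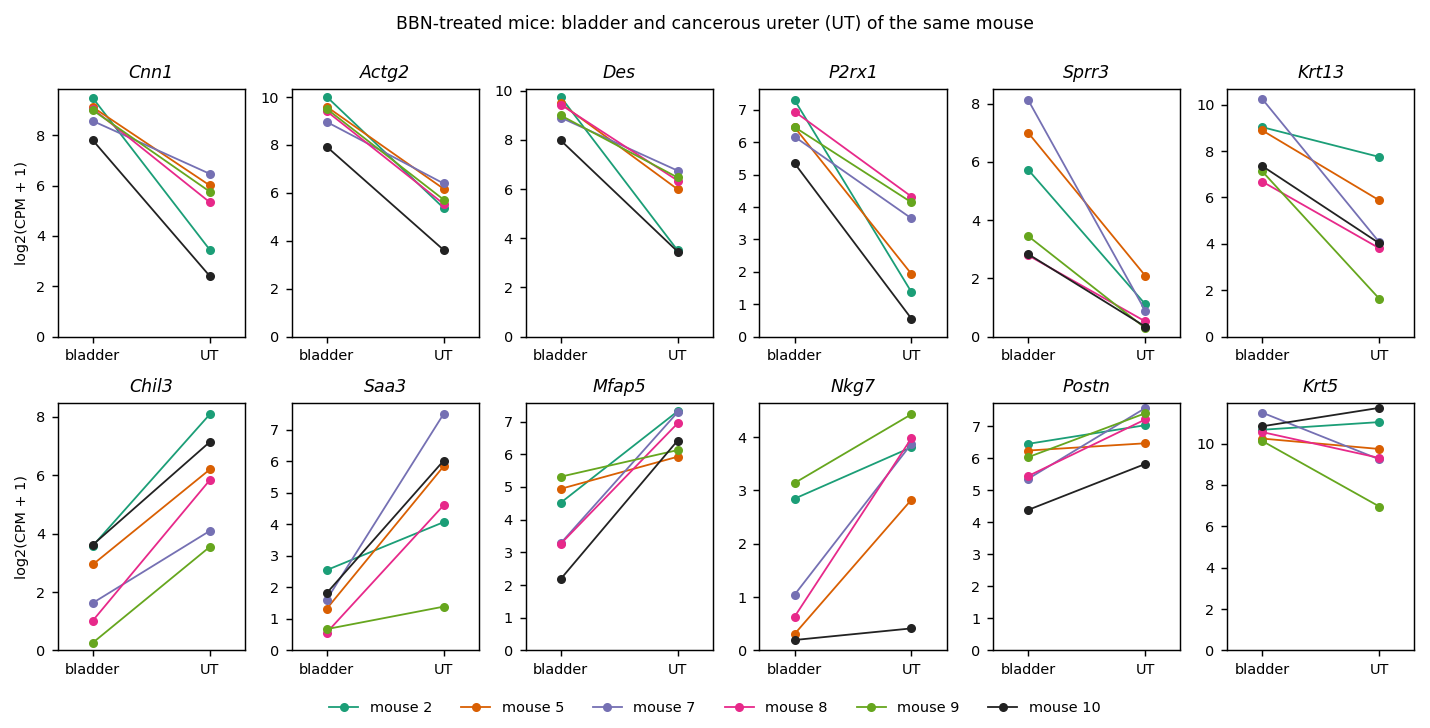
Levels of 12 genes in bladder and UT of each of 6 BBN-treated mice, as log2(CPM + 1) on the y axis, with 1 line per mouse. All lines of the top row fall from bladder to UT, all lines of Chil3, Saa3, Mfap5, Nkg7 and Postn rise, and Krt5 rises in 2 mice and falls in 4.

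Transcription factors that pattern the urogenital tract were among the genes called lower in UT. Pitx1, a homeobox factor, fell in all 6 mice, from 4.76, 33.4 and 106 CPM in bladder to 0.22, 0.864 and 12.8 CPM in UT. The groups overlapped, since UT of mouse 2 held 12.8 CPM and bladder of mouse 10 4.76 CPM (log2 fold change -4.07 ± 0.82, adjusted p = 0.0868). Meis1, a homeobox cofactor, fell by 2.54-fold (adjusted p = 0.0746). Hand2, a factor of mesenchyme below the level set for naming, was called lower at 0 to 0.142 CPM in UT and 1.06 to 3.95 CPM in bladder.

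Of 24 Hox genes tested, 1 was called lower and 0 higher, and their median log2 fold change was -0.05. The called gene was Hoxd13, at the distal end of its cluster. It had 28.9, 14.2, 3.91, 5.07, 4.7 and 1.51 CPM in the 6 bladders and 0, 0, 0, 0.308, 0 and 0.0661 CPM in UT, so 4 UT values were 0. With 6 counts in all UT libraries together, its fitted log2 fold change of -6.92 ± 1.06 (adjusted p = 0.066) depends on the prior count. Hoxa13 did not pass the filter on low counts and was 0 to 0.538 CPM in UT and 0.36 to 2.15 CPM in bladder. Tbx18, a factor of the ureteral mesenchyme, was 1.94, 10.5 and 20.5 CPM in UT, 1.59, 3.27 and 6.46 CPM in bladder and 35.9 ± 2.33 CPM (SD, n = 3) in untreated ureter, and did not pass (log2 fold change 1.47 ± 0.55, adjusted p = 0.218). Pax8, a factor of the kidney and ureteric bud lineage, was 11.5, 27.5, 20.6, 8.51, 3.23 and 64.9 CPM in UT of mice 2, 5, 7, 8, 9 and 10 and 0.179, 0.157, 7.02, 0.548, 3.71 and 6.05 CPM in their bladders. It was higher in UT of 5 of 6 mice without passing (log2 fold change 3.46 ± 0.98, adjusted p = 0.145), and it was 0.522 ± 0.308 CPM in untreated ureter. Pax2 was 0.441 to 4.54 CPM in UT and 0.269 to 3.68 CPM in bladder (adjusted p = 0.507). Of 9 kidney tubule genes tested 0 were called in either direction, and the 5 tubule markers (Umod, Slc12a1, Slc34a1, Lrp2 and Kap) summed to 2.09 to 10.5 CPM in UT and 1.8 to 5.1 CPM in bladder.

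Of 17 genes of squamous differentiation tested, 4 were called lower (1.08% over all genes) and 0 higher, 13 were lower in all 6 mice, and the median log2 fold change was -2.31. Keratin 13 (Krt13), of stratified epithelia, was 214, 57.6, 15.8, 13, 2.09 and 15.2 CPM in UT and 522, 472, 1209, 101, 138 and 162 CPM in bladder of mice 2, 5, 7, 8, 9 and 10. Each mouse was lower in UT, while UT of mouse 2 lay above the bladders of mice 8, 9 and 10 (log2 fold change -3.67 ± 0.76, adjusted p = 0.0901). Sprr3, a precursor of the cornified envelope, was 0.22, 0.634 and 3.24 CPM in UT and 5.89, 30.8 and 275 CPM in bladder, with no overlap (log2 fold change -5.42 ± 0.61, adjusted p = 0.0407). Involucrin (Ivl) and Sprr1a, of the same envelope, fell by 5.94-fold and 4.45-fold (adjusted p = 0.0661 and 0.0868) without overlap of the groups. Ly6g6c, a surface protein of the Ly6 family, fell from 52.6 to 321 CPM in bladder to 0.612 to 7.22 CPM in UT (log2 fold change -5.77 ± 0.77, adjusted p = 0.0557). Krt13, Sprr3 and Ly6g6c were at 0.652 ± 0.33, 0.0791 ± 0.0285 and 0.173 ± 0.0693 CPM (SD, n = 3) in untreated ureter and 3.42 ± 1.13, 0.22 ± 0.168 and 0.519 ± 0.343 CPM in untreated bladder. Ivl and Sprr1a had untreated ureter values below those of untreated bladder, at 42.1 ± 8.4 against 683 ± 33.7 CPM and 460.0 ± 79.4 against 2759 ± 203 CPM.

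Few genes of the urothelial layers were called. Of 19 luminal genes 1 was called lower, Krt20, at 15.7, 59.2 and 104 CPM in UT and 66, 179 and 719.9 CPM in bladder (log2 fold change -1.92 ± 0.39, adjusted p = 0.0868, lower in 6 of 6 mice with overlapping groups). Upk2 and Upk3a, uroplakins of the umbrella cell plaque, were 0.72 to 50.8 and 5.76 to 629 CPM in UT against 14.2 to 85.5 and 44.9 to 753 CPM in bladder, and each had more RNA in UT for 2 mice and less for 4 (adjusted p = 0.473 and 0.926). Both were far below untreated bladder, which had 1139 ± 35.5 and 4935 ± 273 CPM (SD, n = 3). Of 15 basal genes 0 were called in either direction, 0 of 15 had a log2 fold change above 0, and the median was -1.23. Krt5 was 2108, 855, 604, 633, 123 and 3399.7 CPM in UT of mice 2, 5, 7, 8, 9 and 10, and 1629.7, 1213, 2891, 1507, 1116 and 1832 CPM in bladder (log2 fold change -0.86 ± 0.58, adjusted p = 0.465). Krt14 was 132, 1160.1 and 3834 CPM in UT and 1413, 2548 and 8812 CPM in bladder (adjusted p = 0.359), and Trp63, the basal transcription factor, 27.6, 94.9 and 405 and 178, 234 and 482 CPM (adjusted p = 0.288). Mice 2 and 10 had more Krt5 in UT than in bladder and the other mice less. Both organs of the BBN-treated mice lay above untreated bladder for Krt14, which had 9.77 ± 4.12 CPM there. The 6 urothelial markers (Upk1b, Upk2, Upk3a, Krt5, Krt20 and Trp63) summed to 439 to 4422 CPM in UT and 2516 to 4249 CPM in bladder, with the lowest sum in UT of mouse 9.

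Genes of proliferation did not differ between the organs beyond the spread of the mice. The marker Mki67 was 13.4, 41 and 127 CPM in UT and 34, 64.4 and 76.8 CPM in bladder, against 2.61 ± 0.768 CPM (SD, n = 3) in untreated ureter and 2.81 ± 0.706 CPM in untreated bladder (UT against bladder, log2 fold change -0.30 ± 0.42, adjusted p = 0.732). Of 30 cell cycle genes 0 were called in either direction, with log2 fold changes from -0.81 to -0.02. The cell cycle inhibitor Cdkn2a was 0.661, 1.12 and 5.78 CPM in UT and 1.99, 3.11 and 5.03 CPM in bladder (adjusted p = 0.365). Of 5 INK4 and ARF genes and 18 p53 targets 0 were called, with medians of -0.13 and -0.41.

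Several genes of striated muscle were called lower in UT. Skeletal and cardiac alpha actin (Acta1 and Actc1) had 4.68 to 55.1 and 9.3 to 90.9 CPM in bladder and 0.072 to 1.18 and 0.129 to 3.29 CPM in UT, without overlap (log2 fold changes -5.24 ± 0.73 and -4.90 ± 0.57, adjusted p = 0.0594 and 0.0407). Muscle creatine kinase (Ckm) fell from 6.7 to 48.3 to 0.0661 to 2.99 CPM (adjusted p = 0.0745), and Bves, a membrane protein of muscle, by 18.7-fold (adjusted p = 0.0934). Acta1 and Ckm were the 2 genes called lower of 7 tested in the skeletal muscle list, and 0 were higher. The marker Myh4 and the 2 named genes summed to 11.4 to 107 CPM in bladder and 0.144 to 4.23 CPM in UT. The remaining genes among the 12 largest decreases were Chodl, a C-type lectin (2.33 to 38.1 CPM in bladder and 0 to 1.23 CPM in UT), Asz1, a germ cell gene (2.91 to 40.6 and 0 to 0.478 CPM), Chrdl2, an antagonist of bone morphogenetic proteins (10.3 to 50.5 and 0 to 2.84 CPM), and Pla2g4f, a phospholipase (1.59 to 28.1 and 0.0661 to 1.79 CPM). Their adjusted p-values were 0.0922, 0.0663, 0.0741 and 0.0706, and all 4 were lower in 6 of 6 mice.

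Chil3, Saa3, Wfdc21, Ubd and Acap1 were among the 12 largest increases picked by the naming rule. Chil3 (chromosome 3, 106147554 to 106167564), a chitinase-like protein of myeloid cells, had 271, 72.4, 16.1, 56, 10.7 and 140.1 CPM in UT of mice 2, 5, 7, 8, 9 and 10. The bladders had 11, 6.69, 2.09, 1.03, 0.199 and 11.3 CPM, lower in each mouse, although UT of mouse 9 lay below bladder of mouse 10 (log2 fold change 4.29 ± 0.47, adjusted p = 0.0407). Serum amyloid A3 (Saa3), an acute-phase protein, was 1.62, 39.8 and 180.3 CPM in UT and 0.479, 1.77 and 4.84 CPM in bladder (log2 fold change 4.43 ± 0.78, adjusted p = 0.0706), the 1 gene called of 17 mucosal defense genes. Wfdc21, a whey acidic protein family member, was 10.8, 15.5 and 138 CPM in UT and 0.216, 0.907 and 1.72 CPM in bladder, without overlap (log2 fold change 5.05 ± 0.88, adjusted p = 0.0706). Ubd, a ubiquitin-like modifier induced by interferon gamma and TNF, was 7.41, 69.8 and 682 and 1.72, 5.12 and 29.5 CPM (adjusted p = 0.0874). Acap1, an Arf GTPase-activating protein of endosomal recycling, rose by 7.87-fold (adjusted p = 0.0603). All 5 genes were higher in 6 of 6 mice.

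Immune cell lists had medians above 0 with few calls each, where 0.818% of all genes were called higher. Mouse 2 went the other way for some, by its list medians of the difference in log2(CPM + 1). They were -0.72 for T cells, -3.60 for B and plasma cells and -1.50 for mast cells. For macrophages, neutrophils and MHC class II they were 0.40, 1.80 and 1.07. Mouse 10 was below 0 for mast cells (-0.22) and MHC class II (-0.28). Of 18 genes of T cells and cytotoxic cells 3 were called higher, and all 18 had a log2 fold change above 0, with a median of 1.92. The granule protein Nkg7 was 13, 6.1, 13.7, 14.8, 20.6 and 0.331 CPM in UT and 6.19, 0.236, 1.06, 0.548, 7.81 and 0.144 CPM in bladder of mice 2, 5, 7, 8, 9 and 10 (log2 fold change 2.90 ± 0.62, adjusted p = 0.0947). UT of mouse 10 was nearly without it. The CD8 chains Cd8b1 and Cd8a, the latter below the level set for naming, were 0.132 to 14.4 and 0.331 to 10.4 CPM in UT against 0 to 2.58 and 0 to 1.88 CPM in bladder (adjusted p = 0.0891 and 0.079). The T cell markers Cd3e and Cd3d summed to 0.0661 to 35.7 CPM in UT and 0.288 to 11.7 CPM in bladder, so that UT of mouse 10 had less than any bladder. Of 11 neutrophil genes 2 were higher, the collagenase Mmp8, from 0.0662, 1.52 and 6.82 CPM in bladder to 2.2, 6.31 and 32.5 CPM in UT (adjusted p = 0.0635), and the receptor Csf3r, from 2.87, 6.59 and 24.1 to 8.27, 23.2 and 118 CPM (adjusted p = 0.0748). Neutrophil markers (S100a8, S100a9 and Csf3r) summed to 22 to 502 CPM in UT and 3.56 to 138 CPM in bladder. Of 9 mast cell genes 2 were higher, histidine decarboxylase (Hdc, 3.46-fold, adjusted p = 0.0713, higher in 6 of 6 mice) and tryptase (Tpsab1, 2.92-fold, adjusted p = 0.0987, higher in 5 of 6). Of 18 macrophage genes, 9 B and plasma cell genes and 15 MHC class II genes 0 were called in either direction, with medians of 1.21, 2.11 and 1.14. Macrophage markers (Adgre1, Csf1r and C1qa) summed to 117 to 679.7 CPM in UT and 76.9 to 324 CPM in bladder, and plasma cell markers (Jchain and Mzb1) to 30.1 to 1661 and 14.3 to 1214 CPM.

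Cytokines were called in both directions. Of 32 inflammatory cytokines and chemokines tested 2 were higher and 1 lower. Cxcl9, a T cell attractant, was 0.483, 4.12 and 28.1 CPM in UT and 0.162, 0.746 and 2.17 CPM in bladder (log2 fold change 2.66 ± 0.49, adjusted p = 0.0741). Osm, a cytokine of the IL-6 family, was 2.41, 4.03 and 12.5 and 0.685, 1.17 and 2.42 CPM (3.89-fold higher, adjusted p = 0.0741). Il18, a cytokine of epithelia and macrophages, was 4.32, 21.7, 15.9, 12.3, 8.34 and 8.73 CPM in UT and 37.3, 29.4, 49.4, 44.7, 41.9 and 32.7 CPM in bladder of mice 2, 5, 7, 8, 9 and 10, lower in every UT than in every bladder (log2 fold change -1.77 ± 0.30, adjusted p = 0.0673). The 4 TNF-related genes, which the study chose on libraries that include these, had log2 fold changes above 0 and 0 of them were called. Tnf was 8.86, 3.15, 2.93, 1.67, 1.4 and 3.5 CPM in UT and 1.35, 0.708, 3.91, 1.51, 1.92 and 1.95 CPM in bladder (log2 fold change 0.88 ± 0.52, adjusted p = 0.404). Its receptor Tnfrsf1b was higher in UT of 6 of 6 mice, at 62.4, 78.5 and 127 CPM against 22.5, 33.3 and 73.9 CPM, with a log2 fold change of 1.27 ± 0.29 and an adjusted p of 0.105, just outside the threshold. Il1b was 12.4, 15.1 and 99.5 and 1.78, 13.2 and 34.9 CPM (adjusted p = 0.225) and Il6 1.3, 1.56 and 3.9 and 0.0787, 0.355 and 3.97 CPM (adjusted p = 0.302). Of 26 interferon-stimulated genes 0 were called in either direction, with a median of -0.32.

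Stromal genes included several of the largest increases. Of 24 genes of activated fibroblasts and matrix remodelling 3 were called higher and 0 lower, all 24 had a log2 fold change above 0, and the median was 1.5. Gelatinase B (Mmp9) was 6.22, 35.1 and 230.5 CPM in UT and 1.51, 6.32 and 13.9 CPM in bladder (log2 fold change 2.57 ± 0.50, adjusted p = 0.079). Fibroblast activation protein (Fap) and periostin (Postn), a matricellular protein, rose by 4.27-fold and 2.65-fold (adjusted p = 0.0978 and 0.0745), each in 6 of 6 mice. Mfap5, a protein of elastic microfibrils, was 158, 59.8, 155, 122, 69 and 84.6 CPM in UT and 21.9, 29.7, 8.68, 8.56, 38.8 and 3.53 CPM in bladder of mice 2, 5, 7, 8, 9 and 10, without overlap (log2 fold change 3.02 ± 0.59, adjusted p = 0.0813). Col6a5, a collagen VI chain, and the metalloprotease Adam12 rose by 8.16-fold and 7.05-fold (adjusted p = 0.0673 and 0.0746). Sparc, a collagen-binding matrix protein, was 316 to 1368 CPM in UT and 77.7 to 673 CPM in bladder (log2 fold change 1.87 ± 0.39, adjusted p = 0.0918). With Twist1, below the level set for naming, it made up the 2 genes called higher of 20 in the epithelial-mesenchymal transition list, whose median was -0.32.

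Of 18 genes of hypoxia and glycolysis 1 was called, and it was higher in UT. This gene, Bnip3, a mitophagy receptor induced by hypoxia, was 423, 301, 346, 742, 505 and 832 CPM in UT and 53.7, 219.6, 34.9, 46.3, 39.3 and 35.4 CPM in bladder of mice 2, 5, 7, 8, 9 and 10, without overlap (log2 fold change 3.37 ± 0.56, adjusted p = 0.0673). Angptl4, an inhibitor of lipoprotein lipase, was 29.8, 61.4 and 389 CPM in UT and 5.62, 12.5 and 22.8 CPM in bladder (log2 fold change 2.82 ± 0.60, adjusted p = 0.0941). Gpihbp1, which anchors that lipase to capillaries, was 35, 48.3 and 189 and 3.1, 9.08 and 23 CPM (log2 fold change 2.75 ± 0.42, adjusted p = 0.066). Of 14 adipocyte genes tested 0 were called, while 14 of 14 had log2 fold changes above 0, with a median of 3.70. The markers Adipoq, Plin1 and Cidec summed to 5.76, 221, 3382, 2820, 5352 and 137 CPM in UT of mice 2, 5, 7, 8, 9 and 10 and to 13.7 to 117 CPM in bladder. Their sum was 7920.2 to 9641 CPM in untreated ureter. The part of adipocyte transcripts in these differences was not tested.

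Of 27 genes of xenobiotic metabolism 3 were higher and 1 lower. Cyp4a12a and Cyp4a12b, fatty acid hydroxylases that are close paralogs and may share reads, were 0.144, 41.1, 8.13, 11.8, 3.27 and 209 and 0.504, 36.5, 22.2, 18.4, 7.31 and 303 CPM in UT of mice 2, 5, 7, 8, 9 and 10. In bladder they were 0.0897, 5.94, 3.31, 1.88, 1.29 and 23 and 0.448, 11.5, 11.6, 5.92, 6.65 and 84.5 CPM (log2 fold changes 2.26 ± 0.32 and 1.27 ± 0.24, adjusted p = 0.0603 and 0.0771). Mouse 10 was highest and mouse 2 lowest in both organs. Heme oxygenase 1 (Hmox1) rose by 2.38-fold and Gclc, of glutathione synthesis, fell by 2.34-fold (adjusted p = 0.0853 and 0.0779). The remaining lists had 0 genes called in either direction, with medians of 0.41 for 13 interstitial fibroblast genes, -0.93 for 7 mesothelial genes and -0.84 for 18 genes of EGF and FGF receptor signaling.

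**Figure D3:**
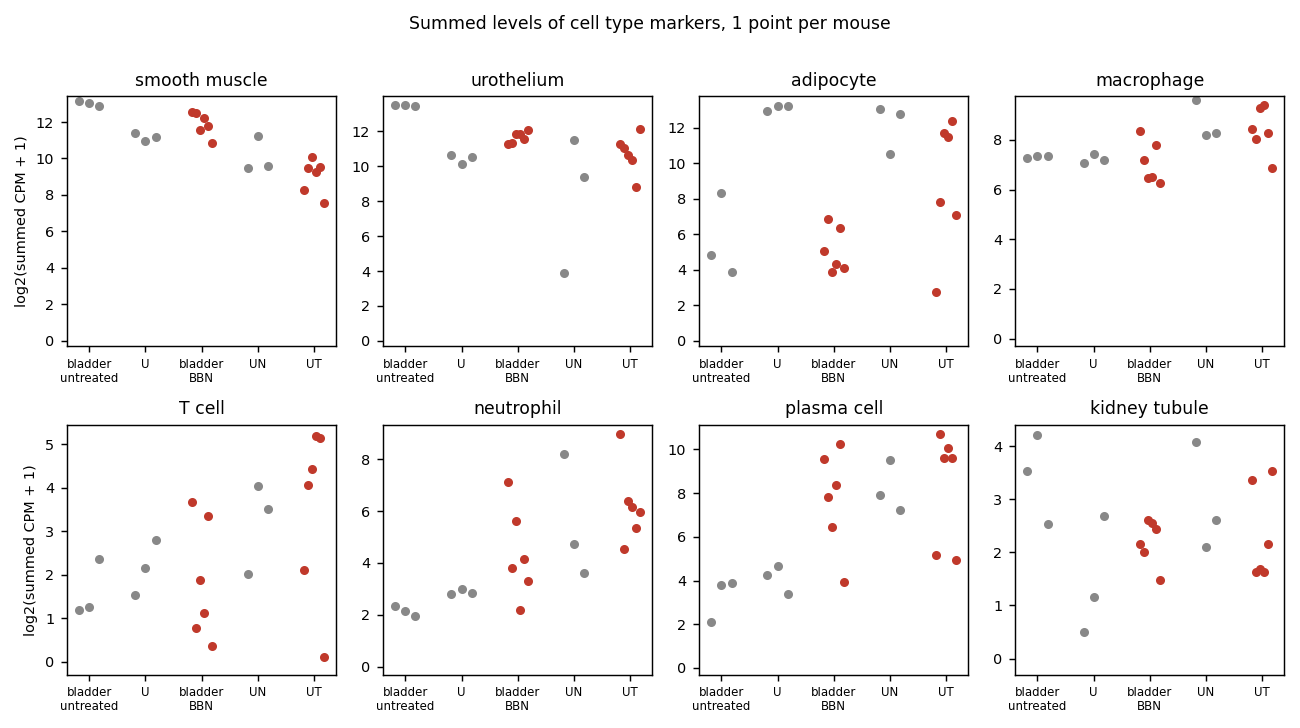
Summed CPM of cell type markers, as log2(summed CPM + 1) on the y axis, with 1 point per mouse for untreated bladder, untreated ureter (U), BBN bladder, noncancerous ureter (UN) and UT. The smooth muscle sums of UT lie below all bladders, while adipocyte sums of UT run from 5.76 to 5352 CPM.

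Cell makeup differed between the organs and between mice, and its part in the differences above was not tested. Every UT fell below every bladder of the BBN-treated mice in summed smooth muscle markers, whereas the UT range covered the bladder range for urothelial markers. Mesothelial markers (Msln, Lrrn4 and Upk3b) summed to 17.1 to 426 CPM in UT and 126 to 469 CPM in bladder. No defining marker in the table was at 0 in every UT or every bladder. The RNA integrity number as a covariate beside the mouse left 103 genes higher and 187 lower, of which 79 and 118 were among the calls above.

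Ureter and bladder also differ without carcinogen, so the difference within BBN-treated mice was compared with that within 3 untreated mice. BBN treatment and cancer of the ureter changed together in this comparison, and their parts cannot be told apart. The difference of the 2 within-mouse log2 fold changes, ureter minus bladder, was tested over 16325 genes, and 470 (2.88%) had a higher and 540 (3.31%) a lower value in BBN-treated mice. Without 1 untreated mouse the counts were 17 and 15 (mouse 1), 48 and 89 (mouse 2), and 18 and 17 (mouse 3). Without BBN-treated mouse 2 they were 940 and 519, and without mouse 9 they were 723 and 917. The ureter-minus-bladder log2 fold change in untreated mice had a median of -0.004 over all 16325 genes. Of the 122 genes higher in UT than in bladder, 100 had a positive ureter-minus-bladder log2 fold change in untreated mice, for 56 of them 2-fold or more. Of the 161 lower genes, 147 had a negative one, for 120 of them 2-fold or more. The interaction was called for 24 of the 122 in the positive direction and 4 in the negative, and for 20 of the 161 in the negative and 6 in the positive direction. The interaction fit holds the same columns of BBN-treated mice as the first comparison. Agreement in sign was therefore favoured by the selection and is not independent support.

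**Figure D4:**
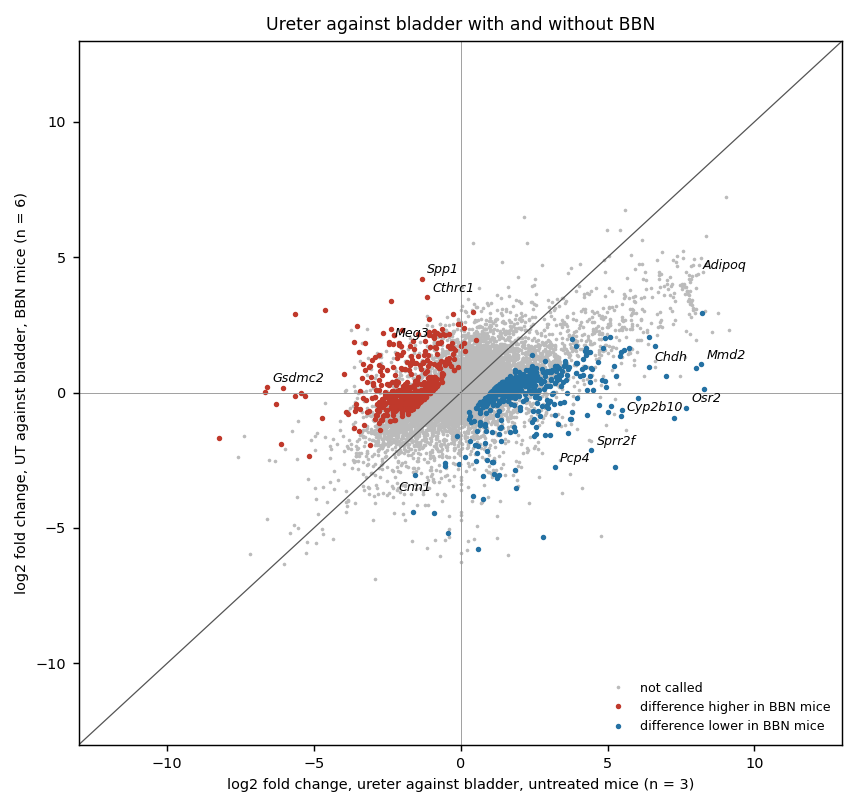
Log2 fold change of ureter against bladder in 3 untreated mice (x axis) and in 6 BBN-treated mice (y axis), from the fit of the interaction, with 1 point per gene and the line of equal values. Red points (470) and blue points (540) are genes whose difference was higher or lower in BBN-treated mice. Gsdmc2 lies near 0 on the y axis and far below 0 on the x axis.

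The gasdermin C genes, members of a family of pore-forming proteins, had some of the largest interactions. Gsdmc2 (chromosome 15, 63824328 to 63845193) had 1.83, 1.16 and 2.31 CPM in untreated ureters and 399, 151 and 166 CPM in untreated bladders. In BBN-treated mice 2, 5, 7, 8, 9 and 10 it had 487, 731, 99.1, 121, 77.6 and 198 CPM in UT and 513, 766, 66.1, 68.1, 164 and 138 CPM in bladder, 3 mice higher and 3 lower. The log2 fold change, ureter against bladder, was -6.58 in untreated mice and 0.20 in BBN-treated mice in this fit (difference 6.78 ± 0.50, adjusted p = 0.0013). Its neighbours Gsdmc3 and Gsdmc4 ended at 25.7 to 245 and 4.73 to 46.6 CPM in UT and were 0.828 ± 0.192 and 0.248 ± 0.0727 CPM (SD, n = 3) in untreated ureter (differences 6.21 ± 0.91 and 5.15 ± 0.89, adjusted p = 0.0171 and 0.0245). These genes are close copies within chromosome 15, and the split of reads among them is uncertain. The UN libraries of mice 2, 7 and 9 had 0.853, 234 and 45 CPM of Gsdmc2.

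Secreted and matrix proteins were also among the higher differences. Osteopontin (Spp1), a secreted phosphoprotein of bone, macrophages and injured epithelia, had 2005, 113, 389, 214, 23.5 and 1344 CPM in UT and 38.8, 12, 38.6, 9.18, 23.9 and 6.41 CPM in bladder of mice 2, 5, 7, 8, 9 and 10. Untreated ureters had 1.41, 0.913 and 3.34 CPM and untreated bladders 3.14, 8.13 and 6.68 CPM. UT of mouse 9 stayed at the level of its bladder, and the difference was 5.54 ± 1.51 (adjusted p = 0.0758), while UT against bladder alone did not pass (log2 fold change 4.22 ± 1.03, adjusted p = 0.116). Cthrc1, a secreted protein of collagen matrix, also passed (difference 4.68 ± 1.38, adjusted p = 0.093, UT 0.955, 9.49 and 55.2 CPM, bladder 0.216, 0.903 and 2.42 CPM). Of 24 genes of activated fibroblasts and matrix remodelling 9 had a higher and 0 a lower difference in BBN-treated mice, with a median of 1.73 against 0.00 over all genes. Among them the collagen chain Col1a1 was 109, 124 and 67.8 CPM in untreated ureters and 944, 607 and 534 CPM in untreated bladders, and 72, 335 and 1125 CPM in UT and 32.9, 98.8 and 409.6 CPM in BBN bladder (difference 4.22 ± 0.98, adjusted p = 0.0487). Fibronectin (Fn1) and the protease inhibitor Timp1 had differences of 3.35 ± 0.70 and 4.28 ± 0.98 (adjusted p = 0.035 and 0.0469). Col1a1, Fn1 and Timp1 were named after their values were seen. The imprinted noncoding RNA Meg3 (4.32 ± 0.81) and Klhl14, a Kelch family protein (4.84 ± 1.02), also had higher differences (adjusted p = 0.0276 and 0.0366). Meg3 was 156 ± 17.6 CPM in untreated bladder, 0.569 to 9.27 CPM in BBN bladder and 3.58 to 16.3 CPM in UT. Klhl14 was 15.3 ± 0.486, 0 to 0.596 and 0.144 to 1.47 CPM in the same order. The mast cell protease Mcpt1 had 1 count in all untreated ureter libraries and 0.132 to 46.5 CPM in UT, so its fitted difference of 7.69 ± 2.13 (adjusted p = 0.0791) depends on the prior count. Of the genes called higher in UT, Mmp8, Tpsab1, Acap1 and Hmox1 had a higher difference in BBN-treated mice (3.80, 2.75, 2.55 and 1.46, adjusted p = 0.032, 0.0263, 0.0578 and 0.0658). Both calls share the libraries of BBN-treated mice and are not independent.

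Among the lower differences were genes with more RNA in untreated ureter than in untreated bladder. Osr2, a zinc finger factor, was 26.4, 22.6 and 22.2 CPM in untreated ureters and 0, 0.599 and 0 CPM in untreated bladders. In BBN-treated mice it was 0.072 to 15.1 CPM in UT and 2.12 to 11.8 CPM in bladder (difference -8.24 ± 2.06, adjusted p = 0.059). With 9 counts of Osr2, 4 of Cyp2b10 and 8 of Mup3 in all untreated bladders together, the fitted differences of these genes depend on the prior count. Choline dehydrogenase (Chdh) was 93.6, 76.3 and 58.2 CPM in untreated ureters against 0.767, 1.57 and 1.11 CPM in bladders, and 6.77, 20.5 and 35.2 against 6.92, 8.87 and 21.9 CPM in BBN-treated mice (difference -5.47 ± 0.68, adjusted p = 0.0114). Pcp4, a calmodulin-binding peptide that is also in the smooth muscle list, was 142 ± 21.7 CPM (SD, n = 3) in untreated ureter and 0.072 to 14.8 CPM in UT, while bladder held 22.6 ± 12.5 CPM without and 7.06 to 38.9 CPM with BBN (difference -5.96 ± 1.18, adjusted p = 0.032). Myocd, the other smooth muscle gene called, had a difference of -2.60 ± 0.66 (adjusted p = 0.0602) and was 0.331 to 3.17 CPM in UT and 14.6, 12.2 and 12.6 CPM in untreated ureters. Sprr2f and Cyp2b10, a cornified envelope protein and a cytochrome P450, had low values in untreated bladder. Sprr2f was 3.16 ± 2.6 CPM in untreated and 347 to 1334 CPM in BBN bladder (difference -6.56 ± 1.11, adjusted p = 0.0233), and Cyp2b10 0.0866 ± 0.0756 and 7.48 to 34.4 CPM (difference -6.35 ± 0.96, adjusted p = 0.0191). Ifi27l2b, Mmd2 and Mup3 were 49.8, 56.2 and 54.5, 168, 124 and 23.5 and 33.3, 51.4 and 38.7 CPM in untreated ureters and had UT medians of 0.696, 0.311 and 0.714 CPM (differences -8.20 ± 1.85, -7.14 ± 1.92 and -5.26 ± 1.33, adjusted p = 0.0434, 0.0724 and 0.0615). Mup3 belongs to a family of near-identical genes. Of the genes called lower in UT, Il18, Ckm and Chrdl2 had lower differences in BBN-treated mice (-2.11, -3.55 and -4.78, adjusted p = 0.064, 0.0945 and 0.0853). These calls too share the libraries of BBN-treated mice.

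**Figure D5:**
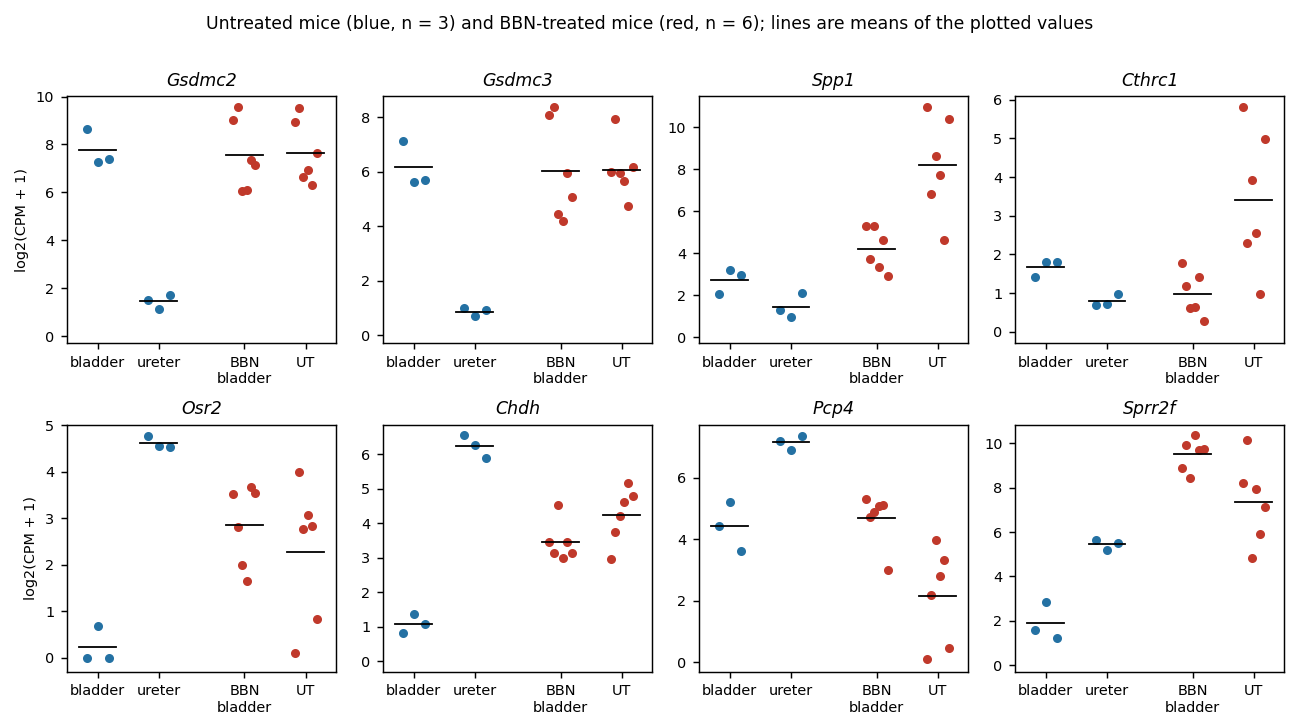
Levels of 8 genes in bladder and ureter of 3 untreated mice (blue) and in bladder and UT of 6 BBN-treated mice (red), as log2(CPM + 1) on the y axis, with lines at group means. Gsdmc2 is at 1.83, 1.16 and 2.31 CPM in untreated ureters and at 77.6 to 731 CPM in UT.

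By contrast, the organ difference of P2rx1 did not pass the interaction test. It had log2 fold changes of -3.82 in untreated and -3.99 in BBN-treated mice in this fit (difference -0.17 ± 0.96, adjusted p = 0.94). Over the lists, 0 luminal genes and 0 basal genes had a lower difference in BBN-treated mice. Gata3, a luminal factor, and the basal keratin Krt15 had a higher one, and the luminal median was 1.26 with -2.52 for ureter against bladder in untreated mice. Adipocyte genes had a median log2 fold change of 7.81 for ureter against bladder in untreated mice and a median difference of -3.40, with 0 of 16 called.

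Noncancerous ureter (UN) of the same mouse was sequenced for mice 2, 7 and 9 and is given as values only. Cnn1 was 62.9, 242 and 55.5 CPM in UN of mice 2, 7 and 9, against 9.94, 87.8 and 53.3 CPM in UT and 718, 380.3 and 511 CPM in bladder. UN was thus between UT and bladder in each of the 3 mice. Chil3 was 41.2, 10.4 and 0.898 CPM in UN and 271, 16.1 and 10.7 CPM in UT, higher in UT each time. Krt13 was 0.366, 153 and 0.823 CPM in UN, where mouse 7 stood apart with a level above its UT. Krt5 was 2.88, 1677 and 107 CPM in UN, and the urothelial markers of UN 2 summed to 14.0 CPM while its adipocyte markers summed to 8487 CPM.

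The 2 cancerous ureters of mouse 5 were distinct libraries. Their median absolute difference over 14915 genes was 0.346 in log2(CPM + 1), against 0.302 to 0.750 between UT of different mice. For Cnn1 and Chil3, both ureters lay on the same side of the bladder of mouse 5. Cnn1 was 109 CPM in the right and 17.8 CPM in the left ureter (bladder 556), and Chil3 42.8 and 102 CPM (bladder 6.69). With the right ureter alone 155 genes were higher and 174 lower, and with the left alone 128 and 179.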

How the data were processed

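RNA of dissected ureter and bladder was made into cDNA with a SMARTerHT kit and into Nextera XT libraries, neither of which marks strand, so that reads of a gene and an overlapping antisense gene cannot be told apart. The authors deposited 1 table of estimated counts (expected counts, not normalized) for 24421 gene symbols in 37 libraries, mapped to GRCm38. Of its nonzero values 21.1% were fractional. TopHat2 2.1.1 and Cuffdiff 2.2.1 are named in the submitters' processing notes, while the program that counted reads is not given in the sources used here.

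Expected counts were rounded and tested with edgeR 4.0.16 (R 4.3.3) after TMM normalization and edgeR's default filter on low counts, by quasi-likelihood with the mouse as a block in 12 columns. The counts of the ureters of mouse 5 were summed for the fit, and their CPM were averaged for levels. The interaction was fitted on 18 columns with both ureters of each untreated mouse summed. Errors of log2 fold changes were taken as the fold change over the root of the F statistic. Pairs were taken from the mouse numbers in the labels. The correlation of deviations from the group means was -0.202 to 0.562 within mice (median 0.181) and had a median of -0.0304 over 30 pairs of different mice. It was negative for mice 2 and 7, so these values do not establish the pairing. Without the replicate block 385 genes were higher and 254 lower. Libraries were compared for repeats, and the closest pair of the same group differed by 39.6 times the sampling variance.

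DESeq2 1.42.0 and limma 3.58.1 served as alternatives, with other normalizations, filters and sets of mice, and with the RNA integrity numbers of the study as a covariate. The scripts were tested on simulated data. The named genes were the 12 largest increases and decreases, 8 per direction for the interaction, up to 4 called members of each list and a fixed set of urothelial, TNF-related and patterning genes. The members and the 31 lists were chosen with earlier results of these data known. Replicates are separate mice. Promoters were taken from RefSeq on GRCm38.p6. Libraries of mice outside the rule were used only in alternatives. Values of some genes and of the lists that hold them are not reported here.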

Additional observations from a re-analysis of the deposited data

Results flagged for a closer look

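Among 140 sets of 6 values, 8 had an end value separated from the others by more than Dixon's limit, and chance gives about 1 in 20. In bladder, mouse 5 was highest for Bnip3 (219.6 CPM) and Hmox1 (180.5 CPM) and lowest for Mki67 (34.0 CPM). In UT, mouse 10 was lowest for Actg2 (11.2 CPM) and highest for Il6 (3.90 CPM). In UT, mouse 2 was highest for Il1b (99.5 CPM) and lowest for Upk3a (5.76 CPM). In UT, mouse 8 was highest for Hoxd13 (0.308 CPM).

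The ureter minus bladder log2 fold change differed between BBN-treated and untreated mice by the edgeR interaction test for 23 of the named genes. The first 8 of each direction below were named because they had the largest called interactions, so their passing was fixed in advance. Over all 16325 genes, 2.88% had a higher and 3.31% a lower difference. It was higher in BBN-treated mice for Mcpt1 (difference 7.69), Gsdmc2 (6.78), Gsdmc3 (6.21), Spp1 (5.54), Gsdmc4 (5.15), Klhl14 (4.84), Cthrc1 (4.68) and Meg3 (4.32). It was also higher for Mmp8 (3.80), Tpsab1 (2.75), Acap1 (2.55) and Hmox1 (1.46). It was lower for Osr2 (-8.24), Ifi27l2b (-8.20), Mmd2 (-7.14), Sprr2f (-6.56), Cyp2b10 (-6.35), Pcp4 (-5.96), Chdh (-5.47) and Mup3 (-5.26). It was also lower for Chrdl2 (-4.78), Ckm (-3.55) and Il18 (-2.11).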

How the results depend on the processing

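Of the named genes, 0 that were called reversed under the alternatives run, but calls were often lost. Gclc lost its call in 13 of 21 alternatives and Nkg7 and Fap in 11, while Chil3, Actg2 and Actc1 lost it in 2. For the interaction, Cthrc1 lost its call in 11 of 16 alternatives and Mcpt1 in 10, while Gsdmc2 and Chdh lost it in 0. Without untreated mouse 1, 2 or 3, the named interaction genes that lost their call numbered 14, 11 and 13. Of those not called, the log2 fold change of Upk3a was positive with all 9 mice (0.015) and with mice 2, 5 and 7 alone (1.93), and ran from -0.97 to 0.44 when 1 mouse was left out, positive without mouse 2, 9 or 10. That of Mki67 was 0.13 without the replicate block and ran from -0.60 to 0.059 when 1 mouse was left out, positive without mouse 9. That of Pax2 was -0.13 with mice 8, 9 and 10 alone. Higher and lower genes in UT numbered 385 and 254 without the replicate block, 1116 and 755 with DESeq2, and 273 and 352 with limma. They numbered 260 and 295 with the 13 libraries kept separate, 339 and 251 with mouse 6 added, and 348 and 390 with all 9 mice whose bladders are labelled N. With no filter beyond 1 count 186 were higher. A test against 2-fold (glmTreat) left 1 and 9, and mice 2, 5 and 7 alone gave 0 and 0 (edgeR), with 1060 of 15143 genes at an unadjusted p under 0.05. Mice 8, 9 and 10 alone gave 121 higher and 110 lower, of which 15 and 43 were among the main calls. Leaving out 1 mouse gave 0 to 817 higher and 0 to 440 lower genes. For the interaction, DESeq2 gave 982 higher and 1052 lower genes, mouse 6 added gave 281 lower, and leaving out 1 mouse gave 17 to 940 higher and 15 to 917 lower. The cause of these differences was not tested. The library totals were compared only as pairs, and their difference of UT minus bladder was 316102 to 1161100 counts without 1 mouse. Values of a few counts per library limit Hoxd13, Chrm2 and Hand2 in UT.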
